A study of Homo sapiens with 8 samples.

Results

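The genes described here encode the machinery of mitochondrial respiration and its supply: subunits of respiratory complexes I to IV and of ATP synthase (complex V), proteins of the mitochondrial ribosome (mitoribosome), and the TIM and TOM complexes that import proteins through the inner and outer membrane. They were the rows whose symbol begins with NDUF, SDHA to SDHD, UQCR, COX followed by a digit, ATP5, MRPL, MRPS, TIMM or TOMM, and 59 of the 3666 genes of the deposited table matched. The choice used symbols and no measured value. RNA sequencing was done on MIA PaCa-2, an established human line from a pancreatic ductal adenocarcinoma, sorted by fluorescence into a PHLac-low and a PHLac-high fraction, named for how readily lactic acid permeates the cells. The labels give all 8 libraries the genotype WT and the treatment None. Cells of both fractions were exposed for a short time to medium with lactate, which was then washed out, as the sort requires, so no library comes from unsorted or unexposed cells. The sort was made in 4 repeats, each giving 1 library per fraction, and the series describes the fractions of a repeat as paired. The 2 fractions are extremes of 1 cell line, and nothing in the labels says whether the repeats were separate cultures, so the p-values measure the spread between these repeats.

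Respiratory complexes I, III and IV move electrons from nutrients to oxygen and pump protons out of the mitochondrial matrix, complex II feeds in electrons from succinate, and ATP synthase uses the returning protons to make ATP. Most subunits are encoded in the nucleus, made in the cytosol and imported, first through the TOM pore and then through TIM complexes, while a few core subunits are encoded in mitochondrial DNA and made by the mitoribosome, whose own proteins are all imported. Dedicated assembly factors join the subunits but are not part of the finished complexes.

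The table holds only genes that differed between the fractions in the authors' test: the highest adjusted p-value in the authors' deposited table is 0.05 and the smallest absolute log2 fold change there is 0.17. Each of the 59 genes had therefore already passed a test on these libraries, and counts of calls below describe the genes without adding evidence. The limma adjusted p-values below were adjusted over the listed genes alone. They are therefore not adjusted p-values for a test over all genes measured. Among RefSeq protein-coding genes whose symbol fits the rule, 58 of 216 (26.9%) had a row, against 3425 of 20056 (17.1%) of all protein-coding genes. Genes without a row were not analysed here. All protein-coding genes include any not expressed in these cells, which could not have a row, so these shares do not measure enrichment. The share was 8 of 15 for TIM genes, 5 of 10 for TOM genes, 8 of 18 for ATP synthase, 8 of 37 for complex I, 13 of 49 for the large and 6 of 28 for the small mitoribosomal subunit and 0 of 10 for complex IV assembly factors. With the smallest step in each library taken as 1 read, the listed genes held 8979276 to 23176205 reads per library, and the least read member, SDHAP3, still had 178 reads or more in each. Of the markers looked up, KRT19 was the only 1 of 9 carcinoma line markers with a row, 2 of 6 fibroblast markers had one (COL1A1 and COL3A1, summing to 5773 to 9392 in PHLac-low and 2645 to 4557 in PHLac-high), as did 3 of 5 leukocyte markers (PTPRC, CD68 and CD14, 1522 to 3403 and 1591 to 5276) and 0 of 3 endothelial markers. The part of these differences in the results was not tested. Since the libraries are bulk samples, more cells of one kind and more RNA per cell cannot be told apart.

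Stretches upstream of the transcription start are shown for 7 members, because they carry the most changed genes (MRPL18, NDUFAF4, TIMM10), a gene that was lower in PHLac-high (SDHAF1), a member whose fractions did not overlap (UQCR11) and carriers of the NRF1 letters (ATP5C1, MRPL17). Sequence and starts are from RefSeq on GRCh38.p14, and 49 of the 59 members had an entry. Each runs 5′ to 3′ on the gene's strand up to the base before its start and ends early where an exon of a neighbouring gene begins. Capitals mark a searched motif on either strand: CCGGAAG, core letters bound by ETS family factors, or the palindrome bound by NRF1, an activator of respiratory genes, which is the run in capitals in ATP5C1 and MRPL17. MRPL18 (chr6:159789750-159789811, plus strand) is bounded by TCP1 and held none of the motifs. NDUFAF4 lies at chr6:96897892-96898141 (minus), TIMM10 at chr11:57530755-57531004 (minus), ATP5C1 at chr10:7787982-7788176 (plus), MRPL17 at chr11:6683341-6683590 (minus), UQCR11 at chr19:1605463-1605712 (minus) and SDHAF1, with none of the motifs, at chr19:35994938-35995187 (plus).
MRPL18: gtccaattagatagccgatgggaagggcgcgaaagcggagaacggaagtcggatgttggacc
NDUFAF4: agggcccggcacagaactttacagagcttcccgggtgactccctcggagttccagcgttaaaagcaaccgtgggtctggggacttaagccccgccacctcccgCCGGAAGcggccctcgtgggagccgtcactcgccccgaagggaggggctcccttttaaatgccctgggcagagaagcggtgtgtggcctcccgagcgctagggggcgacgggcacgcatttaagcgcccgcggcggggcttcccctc
TIMM10: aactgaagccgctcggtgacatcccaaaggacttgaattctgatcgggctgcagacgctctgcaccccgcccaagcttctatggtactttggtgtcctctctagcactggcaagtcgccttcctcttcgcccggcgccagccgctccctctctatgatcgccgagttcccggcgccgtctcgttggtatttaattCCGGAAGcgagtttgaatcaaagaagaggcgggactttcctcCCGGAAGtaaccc
ATP5C1: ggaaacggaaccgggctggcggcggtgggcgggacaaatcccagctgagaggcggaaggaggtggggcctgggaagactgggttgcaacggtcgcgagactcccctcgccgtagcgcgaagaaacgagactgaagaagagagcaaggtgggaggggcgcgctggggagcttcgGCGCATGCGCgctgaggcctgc
MRPL17: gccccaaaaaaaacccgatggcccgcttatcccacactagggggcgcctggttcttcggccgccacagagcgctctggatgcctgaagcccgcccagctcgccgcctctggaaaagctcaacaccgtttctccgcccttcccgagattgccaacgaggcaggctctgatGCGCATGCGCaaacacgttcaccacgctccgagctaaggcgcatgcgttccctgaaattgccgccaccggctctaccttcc
UQCR11: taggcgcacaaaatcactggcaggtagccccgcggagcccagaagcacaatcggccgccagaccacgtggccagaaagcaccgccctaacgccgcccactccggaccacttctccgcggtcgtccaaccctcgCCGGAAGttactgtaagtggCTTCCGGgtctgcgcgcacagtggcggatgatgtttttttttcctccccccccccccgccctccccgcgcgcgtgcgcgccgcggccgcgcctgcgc
SDHAF1: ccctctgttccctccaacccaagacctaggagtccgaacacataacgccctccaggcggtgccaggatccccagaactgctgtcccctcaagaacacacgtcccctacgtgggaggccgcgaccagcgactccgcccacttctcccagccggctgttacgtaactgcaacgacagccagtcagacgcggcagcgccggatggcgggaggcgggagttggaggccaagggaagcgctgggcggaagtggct

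Over the window from 250 bases before to 50 after the start, the ETS letters were found on either strand in 23 of 49 members (46.9%), against 17.0% of 2850 listed genes and 10.7% of all 27305 windows. AAGATGGC, core letters bound by the factor YY1, was found in 11 members (22.4%), against 4.67% of listed genes and 3.03% of all windows. The NRF1 letters were in 4 members (8.16%), against 1.93% and 1.36%. A heat shock element (GAA, TTC and GAA, each a pair of bases apart) was in 1 member, MRPL51 (2.04%), against 0.526% and 0.487%. The letters were searched with the results known, a match is a description of sequence, and no match says only that these letters are not in this window.

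In PHLac-high, 57 of the 59 genes were higher and 2 were lower (limma with the repeat as a block, adjusted p from 0.000166 to 0.0238), where 99.9% of all listed genes were called, 58.7% higher and 41.2% lower. The differences were small: 55 of the 57 increases lay between 0.20 and 0.43 on the log2 scale of normalised count plus 1, about 1.15-fold to 1.34-fold. No listed gene had an absolute change under 0.17 in the authors' table. The lower edge of this range is thus bounded by the choice of listed genes. The median over the members was 0.27, beside 0.25 over all listed genes and 0.37 over the listed genes that were higher. NDUFAF4 (0.71) and MRPL18 (0.69) stood above this range, SDHAF1 (-0.39) and the pseudogene SDHAP3 (-0.38) below it. A log2 change between 0.19 and 0.44 was found in 34.3% of all listed genes. The same direction in all 4 repeats was seen in 58 of the 59 genes, beside 96.1% of listed genes.

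**Figure D1:**
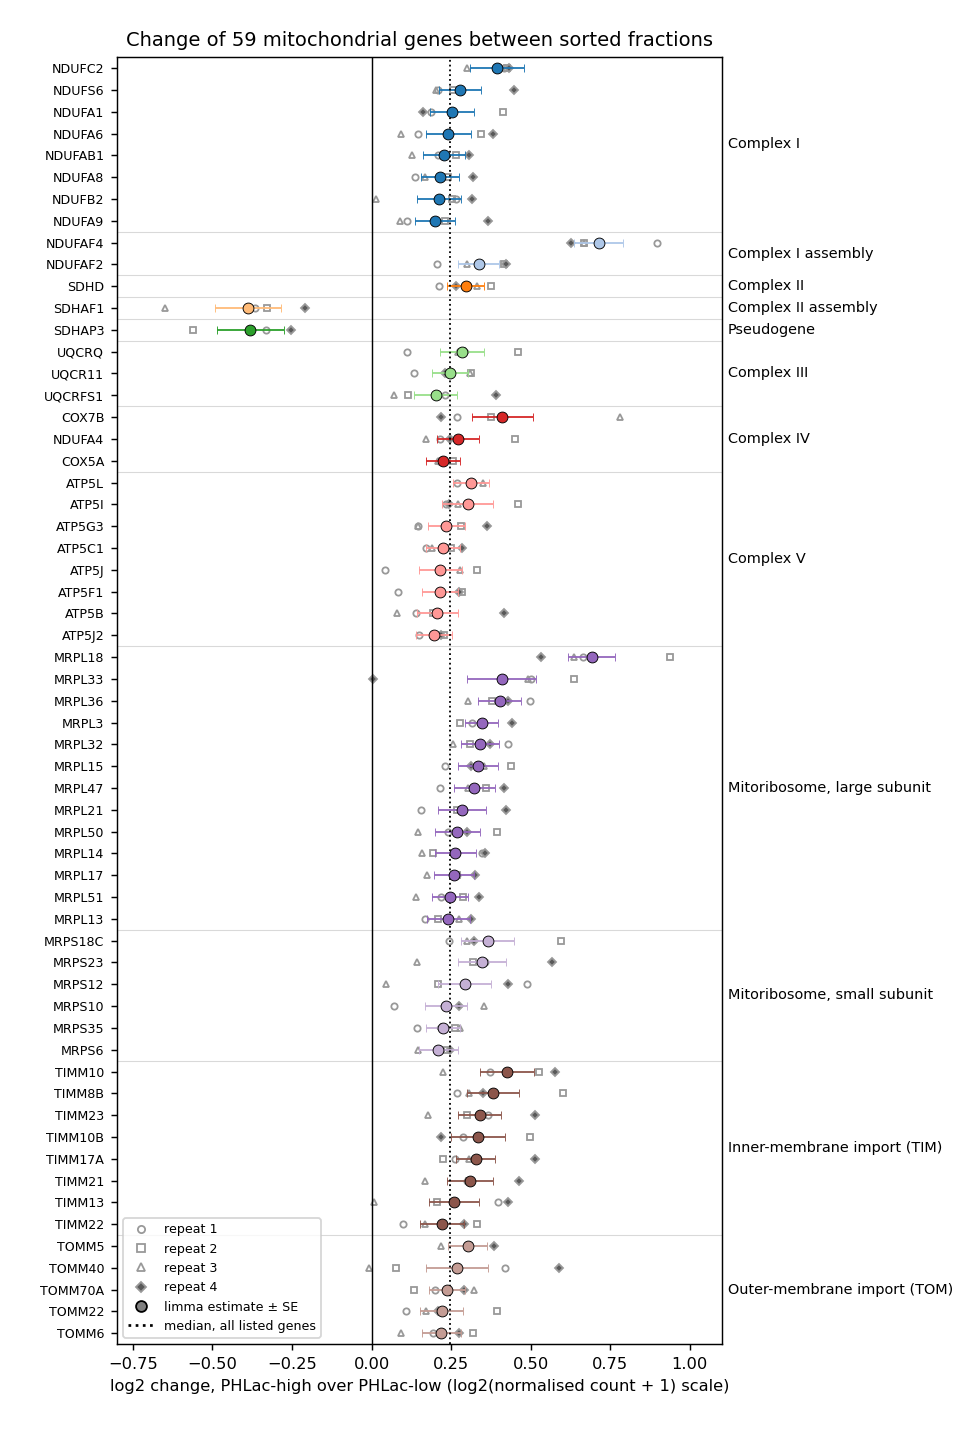
Log2 change of PHLac-high over PHLac-low (x axis) of each of the 59 genes (y axis), grouped by role, as the limma estimate (filled circle) with its standard error (bar) and as the change in each repeat (small symbols); the dotted line is the median of all listed genes. Most genes lie between 0.20 and 0.43 with the authors' size factors, NDUFAF4 and MRPL18 lie near 0.70, and SDHAF1 and SDHAP3 lie below 0. With upper-quartile scaling, which lowers each change by a near-equal amount, 13 of the increases change sign.

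The increases depended on how the libraries were scaled. When the libraries were instead scaled by their own upper quartile over the listed genes, the median over all listed genes moved from 0.25 to 0.02 and that over the members from 0.27 to 0.04, so that 44 members lay above 0 and 15 below. This scaling lowered each member by a near-equal amount (NDUFAF4 from 0.71 to 0.49, TOMM40 from 0.27 to 0.04). It was taken over called genes, most of them higher among those with high counts, so it removes a shared increase. The sign changes under it therefore cannot show whether such an increase is present. Whether a gene stays above 0 under it, here and below, follows from the size of its change with the authors' size factors. With upper-quartile scaling NDUFAF4, MRPL18 and MRPL36 were called higher and SDHAF1 and SDHAP3 lower (limma, 64.4% of listed genes called, 23.2% higher and 41.2% lower). Without the repeat as a block, 3 members were called (NDUFAF4, MRPL18 and MRPL33, all higher; 31.0% of listed genes, 20.3% higher). After each library was corrected for transcript base composition and length, 16 were called, 15 higher and SDHAP3 lower (66.6% of listed genes, 39.7% higher and 26.9% lower), and 9 increases changed sign (to -0.06 at the lowest): ATP5C1, COX5A, MRPL13, MRPS6, MRPS10, MRPS35, NDUFAB1, NDUFB2 and TOMM6. NDUFAF4 and MRPL18 were the 2 genes called higher under all 3 of these alternatives. The base composition and length correction moved the median over all listed genes from 0.25 to 0.10 and that over the members from 0.27 to 0.08. It was fitted over listed genes alone, so it can also remove part of a fraction difference that follows composition or length. A call lost under it, here and below, does not show that a difference is absent. With genes at or above the median count alone, all 45 members left were called higher (76.9% of the genes kept). Leaving out repeats 1, 2, 3 and 4 in turn, 55, 53, 59 and 58 members were called, where 94.6%, 94.7%, 95.2% and 98.9% of listed genes were.

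Among the complex I genes, all 8 with a row were higher in PHLac-high with the authors' size factors (median log2 change 0.23), while with upper-quartile scaling 5 were above 0 and 3, NDUFA8, NDUFA9 and NDUFB2, were below. Complex I oxidises NADH and passes the electrons to ubiquinone. NDUFC2, an accessory subunit in the membrane arm, had the largest change. Its normalised counts were 423, 370, 410 and 510 in PHLac-low repeats 1 to 4, and 565, 498, 505 and 690 in PHLac-high, which differed by 0.39 ± 0.083 in log2 units (SE, n = 4 pairs; limma adjusted p = 0.00289). Each repeat showed the increase, but PHLac-low of repeat 4 lay above the lowest PHLac-high values, so the groups overlapped. NDUFS6, an accessory subunit near the NADH-oxidising arm, changed by 0.28 ± 0.065 (SE), with 2196, 1909, 1822 and 2870 in PHLac-low and 2537, 2279, 2097 and 3911 in PHLac-high. NDUFA9, the complex I member with the highest counts, changed by 0.20 ± 0.064 with the authors' size factors and by -0.03 with upper-quartile scaling. The other 5 subunits, NDUFA1, NDUFA6, NDUFA8, NDUFAB1 (the mitochondrial acyl carrier protein) and NDUFB2, changed by 0.21 to 0.25, and the groups overlapped in each. NDUFA6, NDUFB2 and NDUFA9 were not called without repeat 2 (limma adjusted p = 0.0538, 0.0612 and 0.0604), nor NDUFB2 without repeat 1 (0.0583).

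Of 9 complex I assembly factors with a matching symbol, 2 had a row, and 1 of them showed a larger difference than the subunits. NDUFAF4 (Entrez 29078), which acts early in building the arm that reaches into the matrix, had the largest change of the 59 genes. It was at 610, 718, 836 and 928 in PHLac-low repeats 1 to 4 and at 1136, 1140, 1328 and 1434 in PHLac-high. All 4 PHLac-high libraries lay above all 4 PHLac-low libraries. The means were 773 ± 139 and 1259 ± 147 (SD, n = 4), a 1.64-fold difference (log2 change 0.71 ± 0.076 SE; limma adjusted p = 0.000167). The increase was 0.90 in repeat 1 and 0.63 to 0.67 in the others, and it was 0.49 with upper-quartile scaling and 0.51 after the base composition correction. At 0.5 or above lay 19.6% of all listed genes, and NDUFAF4 ranked at place 399 of the listed increases. NDUFAF2, which joins late in assembly, changed by 0.34 ± 0.063 (SE), from 2079, 2127, 2305 and 2458 to 2399, 2841, 2838 and 3291. Its groups overlapped through 1 library on either side. After the base composition correction NDUFAF2 changed by 0.04 and was not called (limma adjusted p = 0.578).

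For complex II, which oxidises succinate to fumarate, the 2 protein-coding genes with a row went in opposite directions. SDHD, a membrane anchor subunit, was at 2845, 2457, 2427 and 3218 in PHLac-low and 3297, 3185, 3054 and 3865 in PHLac-high, a difference of 0.30 ± 0.058 in log2 units (SE; limma adjusted p = 0.00207). It was higher in each repeat, with overlap at PHLac-low of repeat 4, and changed by 0.07 with upper-quartile scaling. SDHAF1 (Entrez 644096), which helps the SDHB subunit acquire its iron-sulphur clusters, fell from 348, 447, 394 and 499 to 270, 356, 251 and 432. It was lower in each of the 4 repeats, though the groups overlapped, and repeat 4 was the highest in both fractions. The log2 change was -0.39 ± 0.105 (SE; limma adjusted p = 0.00733), -0.61 with upper-quartile scaling, and -0.16 after the base composition correction, where it was not called (adjusted p = 0.179). SDHAP3, a pseudogene copy of SDHA sequence, fell from 262, 340, 317 and 365 to 208, 230, 243 and 306, by 0.38 on the log2 scale. Reads of SDHA and its copies may be divided between them by the counting, so the SDHAP3 value is uncertain, and SDHA itself was not analysed here.

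Complex III, which passes electrons from ubiquinol to cytochrome c, had 3 genes with a row, all higher with the authors' size factors (median 0.25), while UQCRFS1 was below 0 with upper-quartile scaling. UQCRQ, a small subunit that binds ubiquinone, was at 2891, 1898, 2230 and 3078 in PHLac-low and 3124, 2610, 2691 and 3773 in PHLac-high (log2 change 0.28 ± 0.069 SE). Both fractions were low in repeats 2 and 3 and the groups overlapped. UQCR11, another small subunit, was at 3886, 3236, 3829 and 3976 against 4265, 4019, 4749 and 4664, and here no PHLac-high library reached down to PHLac-low (0.25 ± 0.057 SE, limma adjusted p = 0.00416). UQCRFS1, the Rieske iron-sulphur protein, changed by 0.20 ± 0.067, and was not called without repeat 1 (limma adjusted p = 0.0563).

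Complex IV, cytochrome c oxidase, had 3 genes with a row, all above 0 with either scaling (medians 0.27 and 0.05), while COX5A was at -0.0015 after the base composition correction. COX7B, a small structural subunit, was at 1677, 1222, 1102 and 1618 in PHLac-low and 2022, 1585, 1894 and 1884 in PHLac-high (log2 change 0.41 ± 0.097 SE; limma adjusted p = 0.00438). Its increase was 0.78 in repeat 3 and 0.22 to 0.37 in the others, and the groups overlapped. COX5A, a nuclear subunit on the matrix side, was at 2711, 2467, 2566 and 2853 against 3141, 2946, 2965 and 3327, and its groups did not overlap (0.22 ± 0.054 SE). NDUFA4, named COXFA4 in RefSeq because the protein belongs to complex IV, changed by 0.27 ± 0.065.

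ATP synthase contributed 8 genes, all higher with the authors' size factors (median 0.22, the lowest of the classes with 3 or more genes), but the median was -0.0044 with upper-quartile scaling, where 5 of them, ATP5B, ATP5C1, ATP5F1, ATP5J and ATP5J2, were below 0. The table uses older symbols for these genes. ATP5B encodes the catalytic beta subunit and had the highest counts of all members. Its counts were 31152, 26914, 23730 and 31055 in PHLac-low and 34299, 30785, 25061 and 41455 in PHLac-high, means of 28213 ± 3582 and 32900 ± 6857 (SD, n = 4). The log2 change was 0.21 ± 0.064 (SE; limma adjusted p = 0.0123) with the authors' size factors and -0.02 with upper-quartile scaling. ATP5L, subunit g of the membrane part, changed most among the 8, from 2462, 1857, 2267 and 2559 to 2964, 2310, 2890 and 3184 (0.31 ± 0.056 SE). ATP5I, subunit e, was at 660, 442, 671 and 730 against 778, 608, 811 and 865 (0.30 ± 0.080), and repeat 2 was lowest in both fractions. The other 5, ATP5G3 (the ring subunit c), ATP5C1 (the gamma subunit of the rotor), ATP5F1 and ATP5J (of the stator stalk) and ATP5J2 (subunit f), changed by 0.20 to 0.23. The groups overlapped in all 8. ATP5J was not called without repeat 2 (limma adjusted p = 0.0662).

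**Figure D2:**
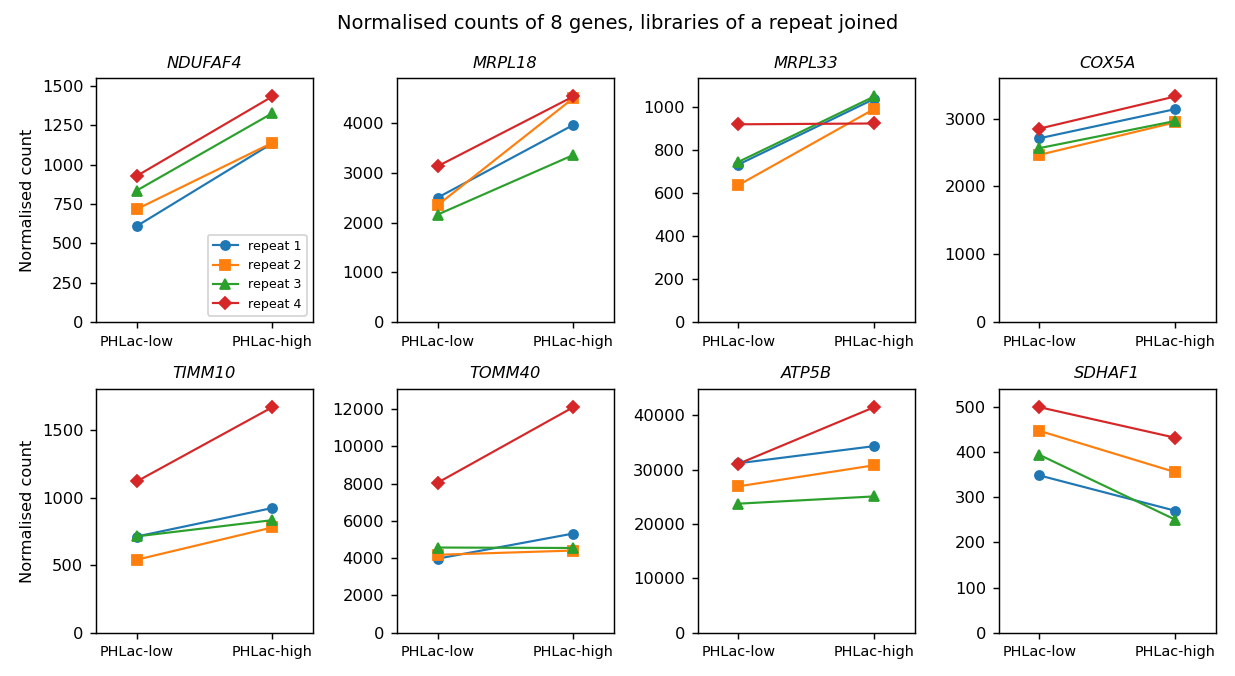
Normalised count (y axis, from 0) of 8 members in the PHLac-low and PHLac-high library of each repeat (x axis), 1 panel per gene, with a line joining the libraries of a repeat. NDUFAF4 and MRPL18 show no overlap between fractions, SDHAF1 falls in each repeat, and in TOMM40 repeat 4 lies far above the other repeats in both fractions.

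The mitoribosome was represented by 13 proteins of the large subunit and 6 of the small subunit. All 19 were higher in PHLac-high with the authors' size factors. With upper-quartile scaling, which lowers each change by a near-equal amount, all 13 large subunit genes lay above 0 and MRPS6 of the small subunit lay below. Their changes with the authors' size factors, 0.24 or more and 0.21, already set these signs. The median change was 0.32 for the large and 0.26 for the small subunit, and 0.10 and 0.04 with upper-quartile scaling. MRPL18 (Entrez 29074), a protein of the large subunit, was at 2502, 2351, 2161 and 3133 in PHLac-low and 3964, 4502, 3359 and 4536 in PHLac-high. All PHLac-high values lay above all PHLac-low values, and the means were 2537 ± 421 and 4090 ± 553 (SD, n = 4), 1.62-fold (log2 change 0.69 ± 0.074 SE; limma adjusted p = 0.000166). The change was largest in repeat 2 (0.94) and smallest in repeat 4 (0.53), and it was 0.47 with upper-quartile scaling and 0.45 after the base composition correction.

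MRPL33, a small protein of the large subunit, was at 733, 638, 746 and 920 in PHLac-low and 1038, 992, 1050 and 924 in PHLac-high (log2 change 0.41 ± 0.108 SE; limma adjusted p = 0.0066). The groups did not overlap, but by a margin set by repeat 4, where the change was 0.01 against 0.49 to 0.64 in the other repeats. MRPL36, another small protein of the large subunit, was at 1082, 1082, 1052 and 1548 against 1528, 1408, 1299 and 2085 (0.40 ± 0.067 SE). Repeat 4 was highest in both fractions. MRPL36 changed by 0.18 with upper-quartile scaling and by 0.65 after the base composition correction, and was called under both. MRPL3, which had the highest counts of the mitoribosomal genes, was at 6483, 6627, 6169 and 8067 against 8064, 8040, 7860 and 10945 (0.35 ± 0.053 SE; limma adjusted p = 0.000709). The other 9 large subunit genes, MRPL13, MRPL14, MRPL15, MRPL17, MRPL21, MRPL32, MRPL47, MRPL50 and MRPL51, changed by 0.24 to 0.34, with overlapping groups. In the small subunit, MRPS18C was at 803, 521, 811 and 1056 against 951, 787, 1000 and 1321 (0.37 ± 0.083 SE), and MRPS23 at 2124, 2042, 2065 and 2783 against 2723, 2549, 2281 and 4128 (0.35 ± 0.076 SE). Both were lowest in repeat 2 or 3 and highest in repeat 4. MRPS35, with the highest counts of the small subunit, changed by 0.23 ± 0.054, and by -0.03 after the base composition correction. MRPS6, MRPS10 and MRPS12, the last of which helps keep decoding accurate, changed by 0.21 to 0.29.

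Of the inner membrane import genes, all 8 were higher in PHLac-high with the authors' size factors (median 0.33), and TIMM22 was below 0 with upper-quartile scaling. TIMM10, a small chaperone of the intermembrane space that carries hydrophobic proteins to the inner membrane, was at 714, 542, 715 and 1122 in PHLac-low and 925, 781, 835 and 1672 in PHLac-high (log2 change 0.43 ± 0.084 SE; limma adjusted p = 0.00217). Each repeat rose, but PHLac-low of repeat 4 exceeded 3 of the PHLac-high libraries. TIMM8B, a chaperone of the same family, was at 871, 528, 743 and 1229 against 1049, 801, 920 and 1569 (0.38 ± 0.081 SE). Repeat 4 was again highest and repeat 2 lowest in both fractions. TIMM17A, part of the channel for proteins with a cleavable presequence, was at 4965, 4514, 5065 and 6945 against 5954, 5278, 6265 and 9914 (0.33 ± 0.063 SE). TIMM23, the other channel protein, changed by 0.34 ± 0.068, and a near-identical copy, TIMM23B, could take or give some of its reads. TIMM10B and TIMM13, small chaperones, changed by 0.34 and 0.26, TIMM21, which links the channel to the outer membrane, by 0.31, and TIMM22, the channel for carrier proteins, by 0.22. TIMM13 was not called without repeat 1 (limma adjusted p = 0.0511), nor TIMM22 without repeat 2 (0.0618).

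The 5 outer membrane import genes were higher with the authors' size factors (median 0.24), while TOMM6 and TOMM22 were below 0 with upper-quartile scaling. TOMM40 forms the pore itself and was the least even of all members: it was at 3974, 4181, 4571 and 8043 in PHLac-low and 5321, 4409, 4546 and 12093 in PHLac-high. Repeat 4 was far above the rest in both fractions, and the change was 0.42 and 0.59 in repeats 1 and 4 but 0.08 and -0.01 in repeats 2 and 3. Its log2 change of 0.27 ± 0.098 (SE; limma adjusted p = 0.0238) was not called without repeat 1 (0.22, adjusted p = 0.0887) or without repeat 4 (0.16, 0.0876). TOMM5, a small subunit that stabilises the pore, was at 1629, 1523, 1658 and 2311 against 2010, 1881, 1930 and 3016 (0.30 ± 0.061 SE). Its increase was present in each repeat and repeat 4 was again highest. TOMM70A, a receptor for carrier proteins, was at 4060, 4448, 3752 and 4291 against 4664, 4876, 4695 and 5246, without overlap (0.24 ± 0.057 SE). The receptor TOMM22 and the small subunit TOMM6 changed by 0.22 each, and TOMM22 was not called without repeat 2 (limma adjusted p = 0.0651).

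**Figure D3:**
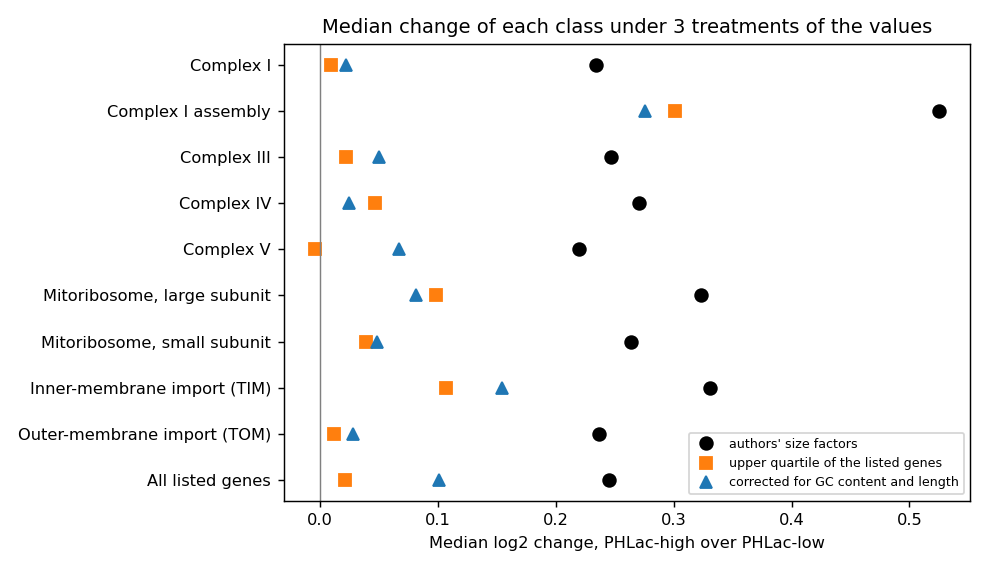
Median log2 change of PHLac-high over PHLac-low (x axis) of each class of members and of all listed genes (y axis), with the authors' size factors (circles), upper-quartile scaling (squares) and the correction for GC content and length (triangles). With the authors' size factors the medians lie between 0.22 and 0.53, and with upper-quartile scaling between -0.0044 (complex V) and 0.30 (the 2 assembly factors of complex I).

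Side by side, the medians ran from 0.53 for the assembly factors of complex I, through 0.33 for TIM genes, 0.32 for the large mitoribosomal subunit, 0.27 for complex IV, 0.26 for the small subunit and 0.25 for complex III, to 0.24 for TOM genes, 0.23 for complex I and 0.22 for ATP synthase. The spread over repeats was of similar size as these gaps: the median of complex I was 0.20, 0.26, 0.15 and 0.34 in repeats 1 to 4, and that of TIM genes 0.29, 0.32, 0.20 and 0.45. No test was made between classes. Each median is over genes that had passed the authors' test, and 0.53 is over NDUFAF4 (0.71) and NDUFAF2 (0.34) alone. Median normalised counts of these classes ran from 1385 for TIM genes to 4046 for complex III. The part of counts and of the choice of listed genes in the order of the medians was not tested. Over all 59 genes the median was 0.22, 0.30, 0.22 and 0.32 in repeats 1 to 4, beside 0.22, 0.18, 0.17 and 0.20 over all listed genes, which include decreases. Over the listed genes that were higher it was 0.42, 0.36, 0.37 and 0.41, above the members in each repeat. Groups did not overlap in 6 of the 59 (10.2%), all higher in PHLac-high: NDUFAF4, MRPL18, MRPL33, COX5A, UQCR11 and TOMM70A. Among all listed genes this share was 36.7%.

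Differences between repeats were larger than those between fractions for most members. In 52 of the 59 genes (88.1%) the range of the repeat means exceeded the difference between fractions, against 58.7% of all listed genes. The range itself was no larger in members, with a median of 0.52 against 0.53 over all listed genes. Repeat 4 set most of the range in members: it was the highest repeat in 56 members (94.9%), against 36.4% of listed genes. The mean log2 level in repeat 4 exceeded that of repeats 1 to 3 in all 59 members, SDHAF1 and SDHAP3 included, by a median of 0.41, while over all listed genes the median was -0.04 and 46.7% lay above 0. Most members were increases, and over the 2156 listed genes with a change above 0 the median excess was 0.16, with 1391 above 0. The excess ran from 0.10 in NDUFA1 to 1.14 in TOMM40, with 0.88 in TIMM10, 0.80 in MRPS6, 0.79 in TIMM8B and 0.66 in NDUFS6. PHLac-low of repeat 4 was the highest PHLac-low library in 53 members (89.8%, against 34.9% of listed genes), and PHLac-high of repeat 4 the highest PHLac-high library in 54 (91.5%, against 36.3%). Among the listed genes with a change above 0, these shares were 53.4% and 51.4%. With repeats 1 to 3 alone, the range of repeat means exceeded the fraction difference in 18 members (30.5%), near the 25.8% of all listed genes. With upper-quartile scaling these were 50 members (84.7%) and 40.6% of listed genes, and after the base composition correction 42 (71.2%) and 42.7%. The median range of repeats 1 to 3 was 0.22 in members and 0.29 over listed genes with either scaling.

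**Figure D4:**
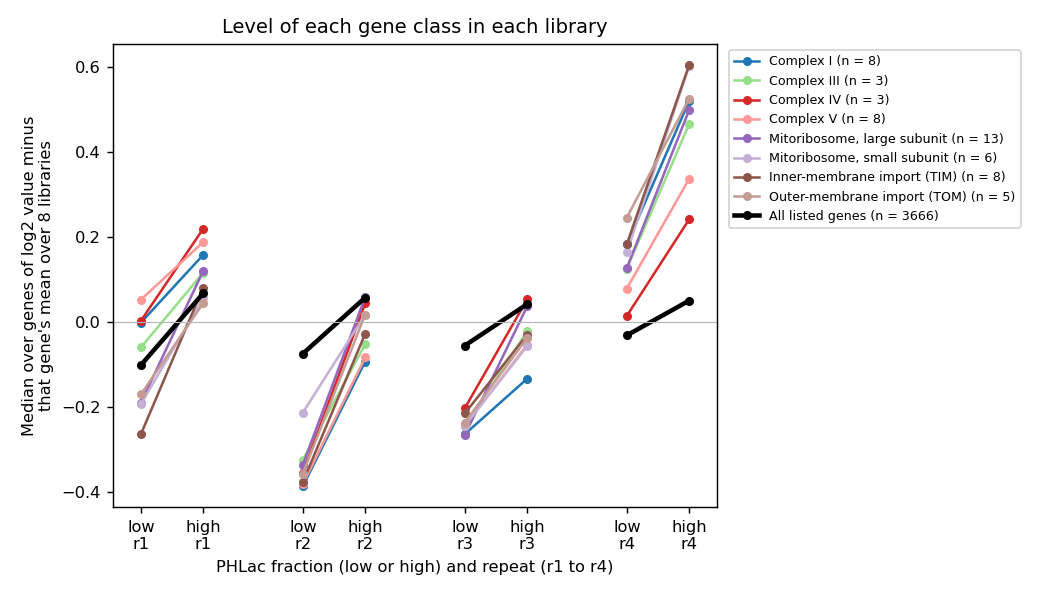
Median over the genes of each class of the log2 level minus that gene's mean over the 8 libraries (y axis), in the PHLac-low and PHLac-high library of repeats 1 to 4 (x axis, r1 to r4). In repeat 4 the 8 classes drawn, which leave out the assembly factors, lie at or above 0.01 in PHLac-low and between 0.24 and 0.60 in PHLac-high, whereas the median of all listed genes stays near 0 in each repeat. Over the listed genes that were higher, not drawn, the median in repeat 4 is -0.07 in PHLac-low and 0.33 in PHLac-high.

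With upper-quartile scaling the excess of repeat 4 had a median of 0.33, again above 0 in all 59 members, and after the base composition correction it was 0.18, above 0 in 43 (72.9%). Members were shorter and lower in GC than listed genes, with a median transcript length of 1268 bases against 3444 and a median GC content of 46.5% against 50.4%. Their median normalised count was 2453, against 1335. The labels give no batch or date for the repeats. This comparison of 1 repeat with 3 was chosen after the values were seen, has no test, and the part of base composition in it was not tested beyond these values.

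**Figure D5:**
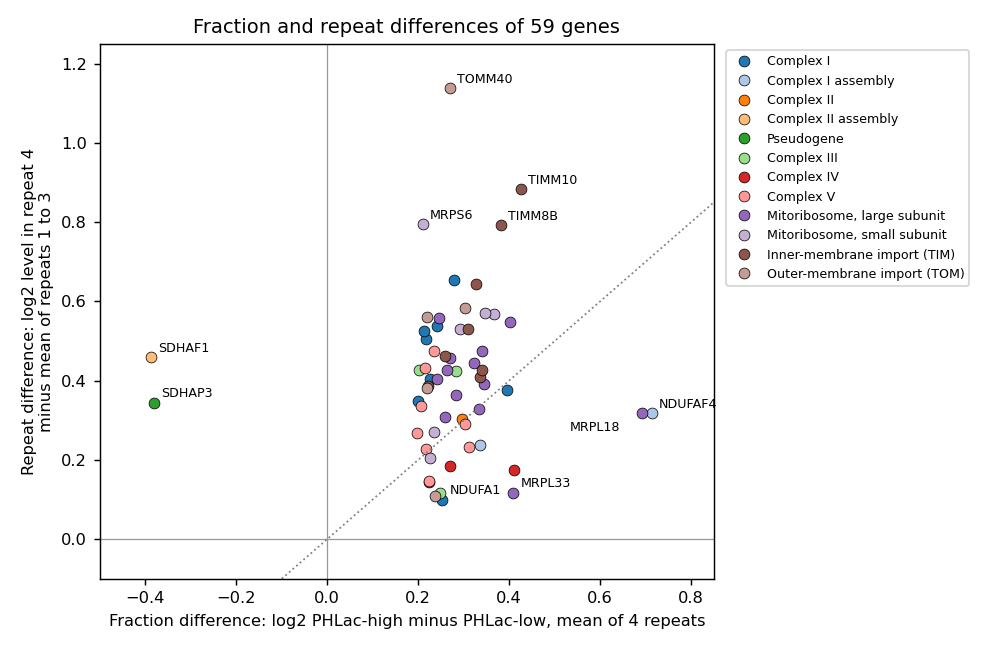
Log2 difference between fractions (x axis, PHLac-high over PHLac-low) and log2 level of repeat 4 minus the mean of repeats 1 to 3 (y axis), 1 point for each of the 59 genes, coloured by role, with a dotted line where both are equal. In 42 genes the excess of repeat 4 is larger than the size of the fraction difference, TOMM40 among them (1.14 against 0.27), while NDUFAF4 and MRPL18 have the larger fraction difference.

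Per kilobase of transcript, a scale that allows genes to be compared, ATP5B had the highest level (mean normalised count of 16616 per kilobase), followed by TOMM6 (5223), MRPL3 (4561) and MRPL51 (4447), and NDUFC2 (197), TIMM10B (201) and SDHAF1 (335) the lowest. NDUFAF4, the gene with the largest difference, was at 424, and MRPL18 at 3388. Each length is that of the gene's longest transcript in GENCODE release 29, a protein-coding one where there was one, and may not be the one these cells use. The low places of NDUFC2 (2518 bases) and TIMM10B (2840 bases) depend on this choice.

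Of the 49 members with a RefSeq start, 20 (40.8%) had a gene on the other strand that starts within 1000 bases and runs away from the member, against 614 of 2850 listed genes (21.5%). In 6 members (12.2%) that neighbour also had a row, against 101 listed genes (3.54%). MRPL18 shares its start region with TCP1, a subunit of the cytosolic chaperonin, whose start lies 210 bases away and which changed by 0.60 ± 0.049 (SE; limma adjusted p = 7.32e-05). WDR77 beside ATP5F1 (0.30 ± 0.080), PSMA2 beside MRPL32 (0.21 ± 0.055) and RNF113A beside NDUFA1 (0.35 ± 0.088) were also higher. MYL5 beside ATP5I (-0.38 ± 0.104) and SARS2 beside MRPS12 (-0.29 ± 0.074) were lower, so these pairs went in opposite directions. Libraries were made strand-specific, per the labels' protocols, but whether strand was used in the counting is not given in the sources used here, so reads of overlapping neighbours may not be separated.

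Other genes of the same pathways were looked up from lists chosen by function, and their counts stand beside the 17.1% of all protein-coding genes that had a row and the 58.7% of listed genes that were higher. The share of a list with a row was 16.7% for electron carriers, 16.7% for other assembly factors, 13.9% for translation, 5.88% for mitoribosome assembly and 16.0% for the citrate cycle, near or below that background. It was 25% for import and processing, 31.2% for mitochondrial DNA and 44.4% for regulators, from 4 or 5 genes each and with no test. The background of 17.1% includes any genes not expressed in these cells, so the comparison is rough. Of 20 further import and processing genes, 5 had a row and all 5 were higher, also above 0 with upper-quartile scaling, and 4 were still called after the base composition correction, CHCHD4 not. HSPE1 and HSPD1, the chaperonin that folds imported proteins, changed by 0.76 and 0.60, GRPEL1 and HSPA9, of the motor that pulls proteins into the matrix, by 0.49 and 0.34, and CHCHD4, which oxidises small intermembrane space proteins, by 0.27. HSPE1 was at 4810, 3837, 4307 and 6465 in PHLac-low and 7830, 7303, 7527 and 9919 in PHLac-high. No overlap was seen between the fractions for it. Of 16 genes of mitochondrial DNA maintenance and transcription, 5 had a row and all were higher, led by C10orf2, the replicative helicase (0.67), TFB2M, a transcription factor (0.50), and TFAM, which packs the DNA and starts transcription (0.41). Of 18 electron carrier and ubiquinone genes 2 were higher and 1 lower. CYCS, cytochrome c, was at 7194, 6547, 8324 and 11696 against 12362, 10959, 13038 and 18544 (0.71 ± 0.051 SE; limma adjusted p = 4.08e-05), the same size of change as NDUFAF4. Of 30 assembly factors without a matching symbol 5 were higher, led by TMEM70 of ATP synthase assembly (0.43), which was not called after the base composition correction (limma adjusted p = 0.0746).

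Mitochondrial translation was mixed: of 36 genes 3 were higher, led by the methionyl-tRNA synthetase MARS2 (0.56), and 2 were lower, the synthetases VARS2 (-0.31) and SARS2 (-0.29). After the base composition correction neither was called lower (VARS2 -0.06, limma adjusted p = 0.370; SARS2 -0.07, 0.400). Of 17 mitoribosome assembly genes 1 had a row, DDX28 (0.29), which was not called without repeat 1 or without repeat 2. Of 9 regulators of respiratory genes 4 were higher, with PPARGC1B, a coactivator of mitochondrial biogenesis, at 0.54, NRF1 at 0.32, PPRC1 at 0.29 and YY1 at 0.28, the last not called after the base composition correction (limma adjusted p = 0.0530). Of 25 genes of the citrate cycle and pyruvate dehydrogenase 4 were higher with the authors' size factors, of which SUCLG1 and IDH3A fell below 0 with upper-quartile scaling, led by PDP1, the phosphatase that activates pyruvate dehydrogenase, which was at 410, 564, 547 and 478 in PHLac-low and 1062, 1234, 1366 and 579 in PHLac-high (1.02). PDP1 rose least in repeat 4, the repeat in which the members were highest. None of the 15 mitochondrially encoded genes looked up had a row. These lists overlap in no gene with the members, were drawn up with earlier results of these data known, and are described here by counts alone.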

How the data were processed

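RNA from 8 sorted MIA PaCa-2 libraries, 4 PHLac-low and 4 PHLac-high, was sequenced paired end from poly(A)-selected, dUTP strand-marked cDNA, per the labels' protocols. The submitters' processing notes name STAR, SAMtools, Subread, DESeq2 and the build hg38, without roles or versions. The authors deposited 1 table of 3666 genes with a normalised read signal per library, called normalised count here, a log2 fold change and an adjusted p-value. The file headers do not describe the scaling. Columns were matched to libraries by the sample descriptions. In 5 rows the symbol had been turned into a date.

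The signal was tested on the log2 scale with limma 3.58.1 (R 4.3.3), as log2(normalised count + 1) with a mean-variance trend, the repeat number as a block, Benjamini-Hochberg adjustment over all 3666 genes and a threshold of 0.05. A change is the limma estimate unless a repeat is named. The series describes the repeats as paired, and within a repeat the deviations of both fractions from their group means correlated at 0.53, 0.66, 0.73 and 0.76 across genes, which are not independent. The fit was tested on simulated data in which most genes were unchanged, unlike the listed genes. With the block it recovered 68 of 100 genes changed by 0.25 and 92 of 100 changed by 0.5, with 9 false calls among 3466 unchanged genes. Without the block it recovered 0 of 100 at either size. Alternatives were no block, a pseudocount of 0.1, upper-quartile scaling (75th percentile of the listed genes), genes at or above the median count, each repeat left out, and a lowess correction (span 0.3) for GC content and length of GENCODE release 29 transcripts (98.5% of listed genes had a value). For the named genes, the other lists and the repeat 4 comparison that correction, and for the repeat 4 comparison the other scaling, were added after seeing the data. Named genes were, in each class, those with the 2 largest absolute changes (1 where a class had under 4 members), the highest count and all that were lower, and the largest change of each other list. Other members named in the text were chosen after their values were seen. The members and lists were chosen with earlier results of these data known.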

Additional observations from a re-analysis of the deposited data

Results flagged for a closer look

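In each group of 4 values, a library or repeat was picked out when its gap to the nearest of the others was too large a share of the range of the 4 by Dixon's test at the 95% level. Over all 59 members, their changes within repeats and the class medians, 17 of 197 groups met this, where chance picks about 1 in 20 groups, or 9.85, and the groups are not independent. Of the 17, 14 were a repeat 4 library above the other 3 of its fraction.

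PHLac-low of repeat 4 stood apart in MRPL36 (gap over range 0.939), MRPS23 (0.889), TOMM40 (0.853), MRPL14 (0.836) and the median level of the small mitoribosomal subunit (0.876). PHLac-high of repeat 4 stood apart in MRPL3 (0.934), TIMM21 (0.924), MRPL15 (0.914), TOMM22 (0.888), TOMM5 (0.887), TOMM40 (0.881), MRPL47 (0.853), TIMM10 (0.839) and the median level of the TOM genes (0.855). Among changes within repeats, repeat 1 stood apart in NDUFAF4 (0.851, with the largest increase), repeat 3 in NDUFC2 (0.873, with the smallest) and repeat 2 in ATP5I (0.834, with the largest).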

How the results depend on the processing

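Without the repeat block, which leaves the pairing out, 1135 listed genes were called instead of 3663, 743 of them higher instead of 2153, and 3 of 59 members, all 3 higher. In the simulated data that setting recovered 0 of 100 genes changed by 0.25. Most entries there were unchanged, unlike the listed genes, so this recovery does not carry over to them. How often that setting misses a difference among the listed genes was not tested. Upper-quartile scaling called 2360 (850 higher) and 5 members (3 higher). Under it 11 members had the same direction in all repeats instead of 58, and 3 were without overlap instead of 6. The same counts over all listed genes are not given under this scaling, so these drops cannot be read as particular to the members. Being taken over called genes, this scaling lowers each change by a near-equal amount and removes a shared increase. The correction for GC content and length, with the block, called 2405 (1434 higher) and 16 members (15 higher). It lowered the median excess of repeat 4 from 0.41 to 0.18. Being fitted over listed genes, it can also remove part of a fraction difference that follows these features. Only genes at or above the median count gave 1831 calls (1410 higher). Leaving out 1 repeat gave 3468 to 3627 calls and 53 to 59 members called.

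Class medians under upper-quartile scaling and under the GC and length correction were 0.30 and 0.28 for complex I assembly (0.34 with genes at or above the median count, where NDUFAF2 alone remained), 0.0098 and 0.022 for complex I, 0.022 and 0.050 for complex III, 0.046 and 0.024 for complex IV, -0.0044 and 0.067 for complex V, 0.099 and 0.081 for the large and 0.039 and 0.048 for the small mitoribosomal subunit, 0.11 and 0.15 for TIM, 0.012 and 0.028 for TOM and 0.045 and 0.079 for all members. Leaving out 1 repeat moved the small subunit between 0.24 and 0.30. Signs turned in 13 members with upper-quartile scaling and in 9 with the correction; among named genes these were NDUFA9 (-0.026) and ATP5B (-0.018) with upper-quartile scaling and COX5A (-0.0015) and MRPS35 (-0.032) with the correction. The cause was not tested.

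Without the block and with upper-quartile scaling, calls were 1 and 2 of 3 for electron carriers, 1 and 1 of 5 for other assembly factors, 1 and 3 of 5 for mitochondrial translation, 0 and 0 of 1 for mitoribosome assembly (0 to 1 with a repeat left out), 3 and 3 of 5 for import and processing, 2 and 3 of 5 for mitochondrial DNA, 1 and 1 of 4 for regulators and 1 and 1 of 4 for the citrate cycle. With the GC and length correction, added for these lists after seeing the data, they were, in this order, 1, 1, 2, 1, 4, 2 (of the 4 with a value), 3 and 1. Of 34 named genes, 8 kept their call without the block, 11 with upper-quartile scaling (2 changed sign), 16 of the 33 with a value after the correction (2 changed sign), 34 with the other pseudocount and 32, 32, 34 and 33 without repeats 1, 2, 3 and 4. Planned count models (edgeR and DESeq2) were not run, because in 4 libraries under 100 low values were left to check the step of 1 read. The members had 178 reads or more in each library; the effect of depth was not tested.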
